A study of Mus musculus with 38 samples.

Results

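The comparison described here is the addition of *Sall4* to reprogramming mouse cells in 2 factor backgrounds, with BMP4 present throughout. The cells were fibroblasts of E13.5 mouse embryos (MEFs), infected with viruses that carry *Jdp2*, *Glis1* and *Esrrb* (JGE), these with *Sall4* (JGES), these with *Oct4*, the product of *Pou5f1* (JGEO), or all of them (JGESO). All were grown in iCD3, a chemically defined reprogramming medium, received BMP4 at 10 ng/ml and were collected at day 7, and the same 4 mixtures were also collected at day 7 without BMP4. Each mixture is 1 bulk RNA library of a whole culture, so no test was run, and every difference carries the unmeasured variation between cultures. *Sall4* was the only factor that differed within each pair, and the JGES minus JGE and JGESO minus JGEO differences share no library. Of 37108 genes in the deposited table, 1433 short RNAs and the 5 delivered factors were left out, and 10670 genes that reached 5 FPKM (fragments per kilobase of exon, scaled to the library's mapped reads) in at least 1 of the 4 BMP4 libraries were compared (called the tested genes, although no statistical test was run). A gene was counted when its log2(FPKM + 1) differed by at least 1, and 910 genes did so in both backgrounds: 299 were higher with *Sall4* in both, 355 were lower in both, and 256 went in opposite directions, where higher in JGE or in JGEO means higher once *Sall4* was added to that background. In bulk samples, fewer cells of a type and less RNA per cell cannot be told apart.

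SALL4 is a zinc finger protein of early embryonic cells that binds AT-rich DNA and recruits the NuRD corepressor, and its gene is active in both derivatives of the inner cell mass. One derivative, the epiblast, is pluripotent and is held by factors such as NANOG and OCT4. The other, the primitive endoderm, is specified by GATA6, GATA4 and SOX17 and gives rise to the visceral endoderm, which takes up and secretes nutrients, and the parietal endoderm, which lays down basement membrane. BMP4 acts through SMAD1, SMAD5 and SMAD9 and induces the *Id* genes.

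The delivered genes were read first as a check of the labels. *Sall4* was at 6.23 FPKM in JGE, 190.0 in JGES, 30.3 in JGEO and 213 in JGESO, so that both libraries labelled with *Sall4* were above both without it. *Pou5f1* was at 0.0970, 5.94, 1599 and 449 FPKM in the same order, highest in the libraries labelled with *Oct4*. *Glis1* was at 0.347 to 1.10 FPKM in all 4 libraries although each is labelled with it. *Jdp2* and *Esrrb* were lower wherever *Sall4* was added. *Jdp2* was at 1499 FPKM in JGE against 254 in JGES and at 1513 in JGEO against 541 in JGESO, and *Esrrb* at 369 against 125 and at 486 against 134. In the *Oct4* background, *Pou5f1* was also lower with *Sall4*, at 449 FPKM in JGESO against 1599 in JGEO. The addition of *Sall4* and the lower level of *Jdp2* and *Esrrb*, and of *Pou5f1* in JGESO, therefore cannot be told apart in any result below.

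The JGES libraries also stood apart from the other mixtures. GEO's labels call their RNA total and that of the others polyA, with the same extraction text. *Lars2* was at 17.4 FPKM in JGES and at 538 to 577 FPKM in the other 3 BMP4 libraries, and the ribosomal RNA gene *Rn45s* at 184 against 1738 to 1859 FPKM. Of 12 macrophage and blood genes, 7 were at least 1 lower in JGES than in JGE, with *Lyz2*, *C1qa*, *C1qb*, *C1qc* and *Fcer1g* listed at 0 FPKM in JGES. JGESO stood apart in another way, with 12730 genes at 1 FPKM or more against 13729 to 14235 in the other 3 BMP4 libraries, and an FPKM sum of 534574 against 439790 to 453730. The part of these library differences in the JGES minus JGE and JGESO minus JGEO values was not tested. The JGESO minus JGEO values rest on no JGES library.

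Across all tested genes the 2 backgrounds differed in how the calls split. JGES minus JGE had 1071 genes higher (10.0%) and 1063 lower (9.96%), and JGESO minus JGEO had 831 higher (7.79%) and 2224 lower (20.8%). The median gene was shifted by −0.12 and −0.22, and centring each difference on that median moved the share of higher calls from 50.2% to 61.5% in JGE and from 27.2% to 41.2% in JGEO. Scaling the libraries to the same upper quartile gave 64.1% and 23.7%. The genes higher in both made up 27.9% of the higher list of JGE and 36.0% of that of JGEO, and the genes lower in both made up 33.4% and 16.0% of the lower lists. As shares of all tested genes, 2.80% were higher in both, 3.33% lower in both, 1.79% higher in JGE and lower in JGEO, and 0.609% lower in JGE and higher in JGEO. These shares follow from the rule that chose the genes and are not read as results. Just inside the threshold lay *Ppp1r14a* (1.00 and 2.88), *Rflna* (−1.01 and −1.74), *Fyttd1* (1.00 and −1.50) and *Smpd3* (−1.01 and 2.18), and just outside it *Wdr19* (0.999 and −1.16), *Atf3* (−0.999 and 1.95), *Igf2* (0.998 and 2.23) and *Arhgef10l* (−1.67 and −0.998).

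**Figure D1:**
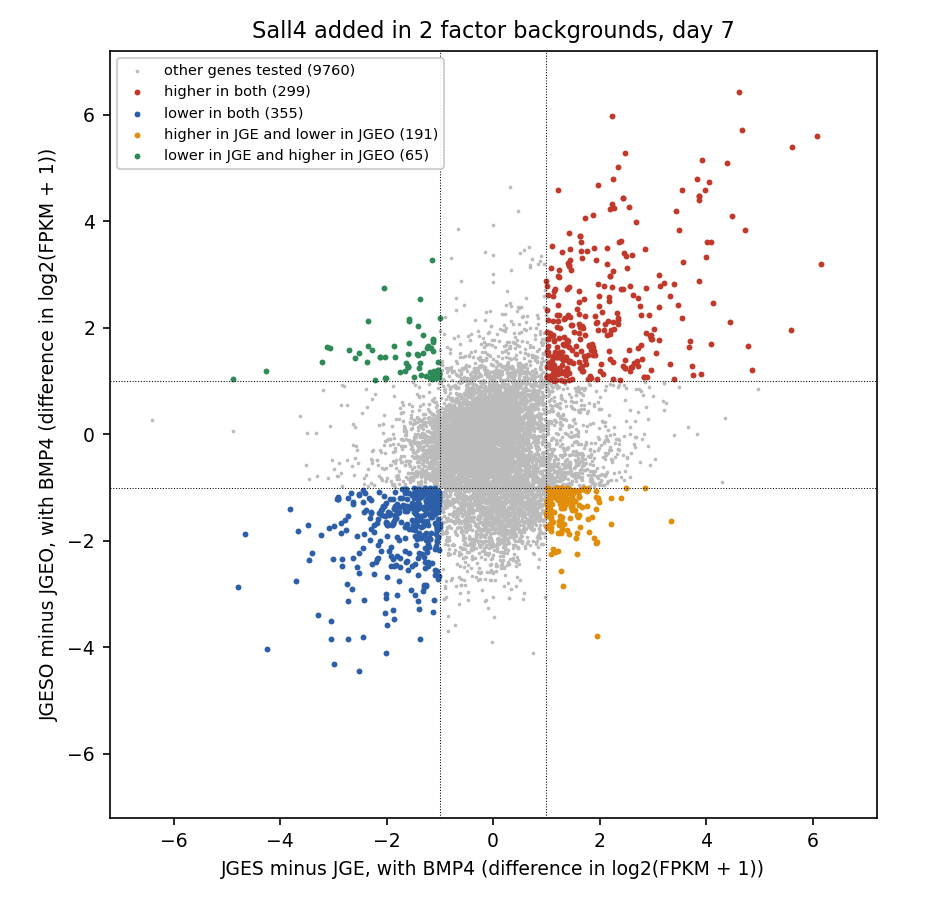
Each point is 1 of 10670 genes, with JGES minus JGE on the x axis and JGESO minus JGEO on the y axis, both as differences in log2(FPKM + 1) at day 7 with BMP4 from 1 library a mixture. Dotted lines mark differences of 1 and −1, and the 4 coloured corners hold 299, 355, 191 and 65 genes, with the longest arm among the genes higher in both.

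The 8 named genes with the largest smaller difference among those higher in both were *Cldn6*, *Krt5*, *Ttr*, *Clu*, *Pitx1*, *Gata4*, *Car4* and *Amn*. Of these, *Cldn6*, *Krt5*, *Ttr*, *Pitx1*, *Gata4* and *Amn* were under 5 FPKM in both libraries without *Sall4*. They passed the filter on low values only through libraries with *Sall4*, so the filter itself favoured their direction. *Gata4*, a zinc finger factor that directs endoderm genes (chr14:63198922-63271692, mm10), was at 0.359 FPKM in JGE, 20.3 in JGES, 1.41 in JGEO and 57.2 in JGESO, 56.5 and 40.5 times higher with *Sall4*. *Sox17*, which acts beside it, was at 1.58, 12.3, 1.99 and 35.5 FPKM. *Pitx1*, a homeobox factor (chr13:55825051-55836192), was at 1.13, 34.5, 2.31 and 86.9 FPKM. In each of these genes both libraries with *Sall4* were above both without it. *Foxa2*, a forkhead factor of endoderm, was at 0.945, 8.11, 2.18 and 20.7 FPKM, and *Gata6*, which lies upstream of *Gata4* in the embryo, at 3.11, 6.84, 4.04 and 15.6 FPKM, 0.93 and 1.72 higher on the log2(FPKM + 1) scale.

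List counts take every member above 0 FPKM in any of the 4 libraries, including members under the filter of 5 FPKM. They are to be read beside the shares of all tested genes, 10.0% higher and 9.96% lower in JGES and 7.79% and 20.8% in JGESO. In both backgrounds, 2.80% were higher and 3.33% lower. A member under 1 FPKM without *Sall4* cannot be counted as lower on the log2(FPKM + 1) scale, as was so for *Gata4* and *Foxa2* in JGE. Of the 12 genes of the primitive endoderm list, 8 were at least 1 higher in JGES, 10 in JGESO, 8 in both and 0 lower in either. Their median differences were 2.30 and 2.24, beside −0.12 and −0.22 for all tested genes. The cargo adaptor *Dab2* was at 3.22, 71.0, 5.24 and 75.2 FPKM and the transcriptional coactivator *Cited1* at 5.35, 73.2, 6.50 and 179 FPKM. The lowest members were *Eva1a*, with differences of −0.26 and 1.39, and *Chst15*, with −0.36 and 0.67. *Klf4*, a factor shared with pluripotency, had differences of 0.71 and 0.70. The list was set with earlier results of these data known and is not independent evidence of its direction.

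The visceral endoderm list was mostly higher as well. Of its 15 genes, of which 13 passed the filter on low values, 13 were at least 1 higher in JGES, 11 in JGESO and 11 in both, with median differences of 2.27 and 1.60. In JGE, *Afp*, *Apoa1*, *Apoa4*, *Apob*, *Apom*, *Cubn*, *Lrp2*, *Hnf4a* and *Fgb* were under 1 FPKM, so they could not be counted as lower. *Ttr*, *Rbp4*, *Apoa1*, *Cubn* and *Lrp2*, among others, passed the filter only through libraries with *Sall4*. The direction of this list was therefore partly fixed in advance. *Amn* encodes the membrane anchor of the cubilin receptor that takes up protein and vitamin cargo (chr12:111271095-111276426), and was at 1.89, 41.4, 4.71 and 127 FPKM. Its partner *Cubn* was at 0.0742, 28.5, 0.402 and 3.42 FPKM, and the coreceptor *Lrp2* at 0.109, 15.6, 0.518 and 2.31 FPKM. *Amn* was highest in JGESO, whereas *Cubn* and *Lrp2* were highest in JGES. Among the secreted carriers, the thyroxine and retinol carrier gene *Ttr* was at 1.49, 51.1, 0.339 and 44.6 FPKM, and *Rbp4*, which carries retinol with it, at 1.30, 10.6, 0.532 and 48.9 FPKM. *Hnf4a*, a nuclear receptor that drives apolipoprotein genes, was at 0.312, 3.94, 0.997 and 8.25 FPKM. The 4 genes not higher in both were *Trf*, the transferrin gene, with differences of −0.48 and −0.91, the apolipoprotein genes *Apoa2*, with −1.03 and 0.44, and *Apob*, with 2.66 and −0.04, and *Fgb*, a fibrinogen chain gene, with 1.004 and 0.06.

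The epithelial list, of junction and keratin genes among others, was mostly higher as well. Of 18 epithelial genes, of which 13 passed the filter on low values, 14 were at least 1 higher in JGES, 14 in JGESO, 12 in both and 0 lower, with medians of 1.82 and 1.71. In JGE, *Krt7*, *Cldn6*, *Cldn7*, *Ocln* and *Esrp1* were under 1 FPKM and could not be counted as lower. *Cldn6*, a tight junction claudin of embryonic epithelia (chr17:23679249-23682446), had the largest smaller difference of all named genes, at 0.735, 83.6, 4.71 and 238 FPKM, 114 and 50.6 times higher. *Cldn7* was at 0.289, 17.2, 2.09 and 84.5 FPKM. The simple epithelium keratin pair *Krt8* and *Krt18* was at 10.7, 73.9, 7.61 and 136 FPKM and at 23.8, 145, 13.1 and 268 FPKM. *Cdh1*, the E-cadherin gene, was at 4.86, 27.02, 17.6 and 46.6 FPKM, and *Epcam* at 1.53, 17.6, 22.4 and 48.6 FPKM. In *Epcam* the groups with and without *Sall4* overlapped across backgrounds, since JGEO was above JGES. *Grhl2*, a factor of epithelial junction genes, had differences of −0.46 and −0.66.

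Some keratins of stratified epithelium were higher too. Of the 10 keratinocyte genes, 3 were at least 1 higher in JGES and 7 in JGESO, with medians of 0.32 and 1.38. *Krt5*, the basal layer keratin (chr15:101707070-101712898), was at 1.47, 61.6, 0.725 and 89.6 FPKM, and its partner *Krt14*, listed at 0 in JGE, reached 4.59, 0.201 and 45.5 FPKM in JGES, JGEO and JGESO. *Trp63*, the factor that defines basal keratinocytes, was at or under 0.731 FPKM in all 4 libraries. *Krt15* had differences of −0.16 and 1.28. Listed at 0 in both libraries without *Sall4* were 8 genes of the higher class, which passed the filter on low values only through the libraries with *Sall4* and so could not have been lower. The hair keratin *Krt31* was there at 2.39 FPKM in JGES and 9.87 in JGESO, *Krt34* at 2.13 and 9.83 FPKM, and *Krt6b* at 2.30 and 15.8 FPKM. The hormone gene *Avp* was at 11.8 and 2.12 FPKM and the protease gene *Klk4* at 5.55 and 2.09 FPKM. *Krt6a* and *Krt6b*, and the hair keratins among themselves, are near copies between which reads can be split.

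**Figure D2:**
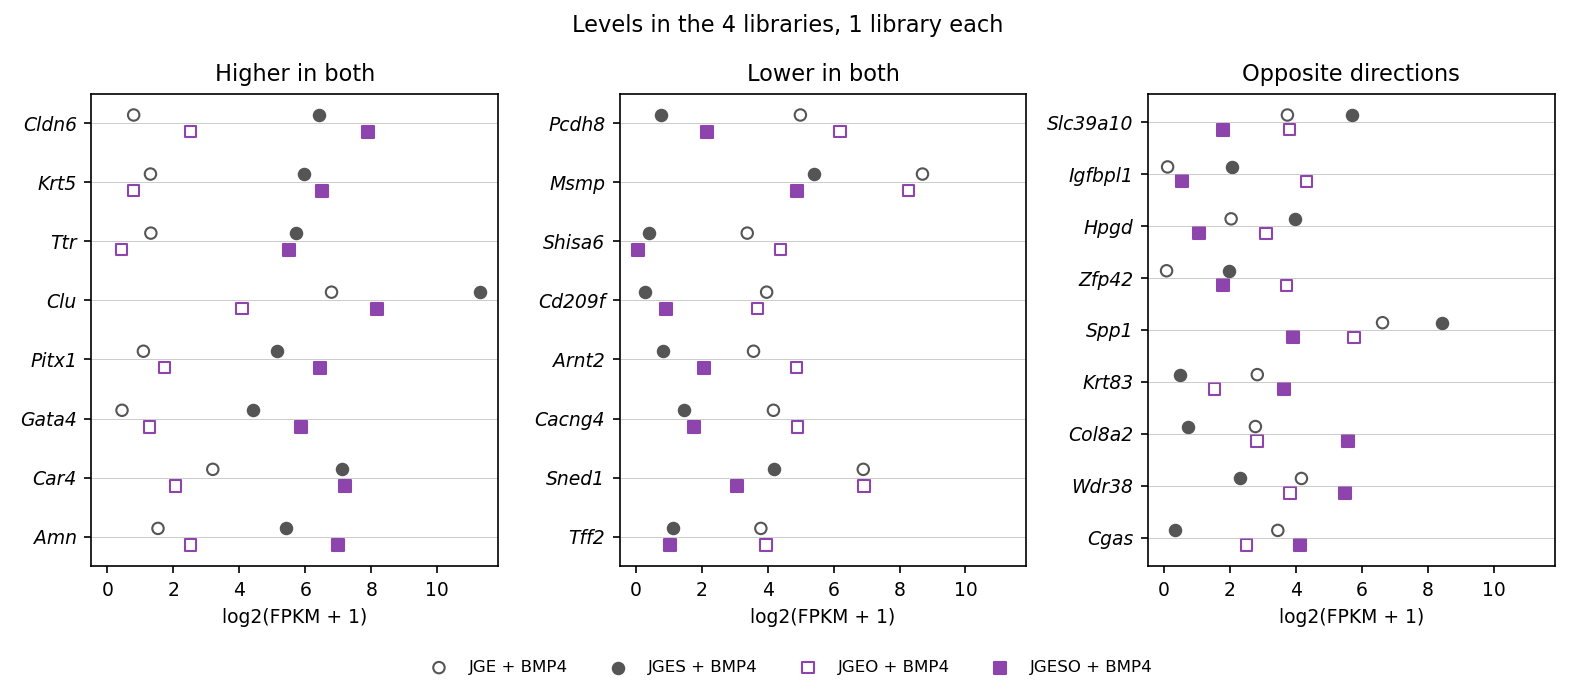
The x axis gives log2(FPKM + 1) and each row is 1 gene, with open symbols for the libraries without *Sall4* and filled symbols for those with it, circles for JGE and JGES and squares for JGEO and JGESO, 1 library each. Filled symbols lie right of open ones in the left panel (*Cldn6* 83.6 and 238 against 0.735 and 4.71 FPKM), left of them in the middle panel, and on different sides by background in the right panel.

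The promoters of 3 of these genes are shown as examples, *Cldn6* for its large difference, and *Krt8* and 1 of the 3 starts of *Foxa2* because they hold the letters searched, so they do not represent their groups. Each line gives the 250 bases before a transcription start of RefSeq on GRCm38.p6 (the build also called mm10), read 5′ to 3′ on the gene's strand, with AGATAA, the letters that GATA factors bind, in capitals where present on either strand. *Cldn6* is at chr17:23679115-23679364 on the plus strand, *Krt8* at chr15:102004343-102004592 on the minus strand, and the third start of *Foxa2* at chr2:148045465-148045714 on the minus strand.
Cldn6: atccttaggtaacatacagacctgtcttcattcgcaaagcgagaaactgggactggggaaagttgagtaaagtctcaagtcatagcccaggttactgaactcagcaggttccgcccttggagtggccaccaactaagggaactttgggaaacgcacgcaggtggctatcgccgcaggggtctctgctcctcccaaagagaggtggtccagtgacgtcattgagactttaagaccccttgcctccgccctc
Krt8: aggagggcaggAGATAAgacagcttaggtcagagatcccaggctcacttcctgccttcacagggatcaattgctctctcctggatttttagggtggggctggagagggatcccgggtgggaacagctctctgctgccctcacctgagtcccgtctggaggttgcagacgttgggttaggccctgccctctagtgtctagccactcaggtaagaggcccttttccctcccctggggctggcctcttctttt
Foxa2: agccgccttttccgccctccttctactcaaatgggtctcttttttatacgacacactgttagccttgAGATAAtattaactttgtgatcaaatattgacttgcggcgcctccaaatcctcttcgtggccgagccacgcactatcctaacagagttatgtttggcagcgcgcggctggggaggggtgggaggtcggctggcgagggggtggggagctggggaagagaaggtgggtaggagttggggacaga
The letters stand 239 bases before the start in *Krt8* and 183 bases before it in *Foxa2*, and are not in this window of *Cldn6*. Over the windows of the 299 genes higher in both, 24 of 267 hold AGATAA (8.99%), beside 5.56% of the windows of all tested genes and 9.99% of the windows of all promoters in the RefSeq table, so that no excess is read from it. Among the windows of the primitive and visceral endoderm lists it was 2 of 30, and among those of the epithelial list 1 of 16.

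Basement membrane genes were higher in part of the list. Of 12 genes, 4 were at least 1 higher in both, among them *Col4a1*, a chain of the network collagen of basement membranes, at 73.3 FPKM in JGE, 202 in JGES, 48.4 in JGEO and 476 in JGESO. *Sparc*, which binds that collagen, was at 479, 787, 568 and 1227 FPKM. *Thbd*, the thrombomodulin gene and a marker of parietal endoderm, went the other way at 6.04, 0.738, 39.9 and 1.39 FPKM. Of 23 mesenchymal and fibroblast genes, 6 were higher in both and 0 lower in both, with medians of 0.57 and 0.71, and the matrix gene *Postn* was at 17.4, 314, 4.95 and 18.4 FPKM. Of the same list, 3 were at least 1 lower in JGES (*Col3a1* at −1.76, *Twist2* at −1.38 and *Prrx1* at −1.19) and 2 in JGESO (*Fbn1* at −2.88 and *Lum* at −1.58). Without BMP4, 14 of the 23 were lower and 0 higher in JGES (beside 16.9% and 14.6% of all tested genes), with a median of −1.35. In JGESO without BMP4, 5 were higher and 4 lower (beside 6.33% and 21.1%), with a median of −0.06. *Clu*, which encodes the secreted chaperone clusterin, was at 110.1, 2499, 16.0 and 289 FPKM. *Car4*, a membrane carbonic anhydrase, was at 8.16, 138, 3.19 and 148 FPKM.

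Of the 6 BMP targets, which BMP signalling induces, 3 were at least 1 higher with *Sall4* in the *Oct4* background and 0 in the other. *Id1* was at 188 FPKM in JGE, 234 in JGES, 60.1 in JGEO and 334 in JGESO, so that JGEO was the library that stood low. *Smad6*, an inhibitory SMAD, was at 47.6, 52.1, 19.12 and 49.4 FPKM in the same way. The 3 were *Id1*, *Smad6* and *Bambi*, while *Id3* was lower in JGES, and the list medians were −0.25 and 1.10. Whether these differences differ between backgrounds beyond culture variation was not tested.

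**Figure D3:**
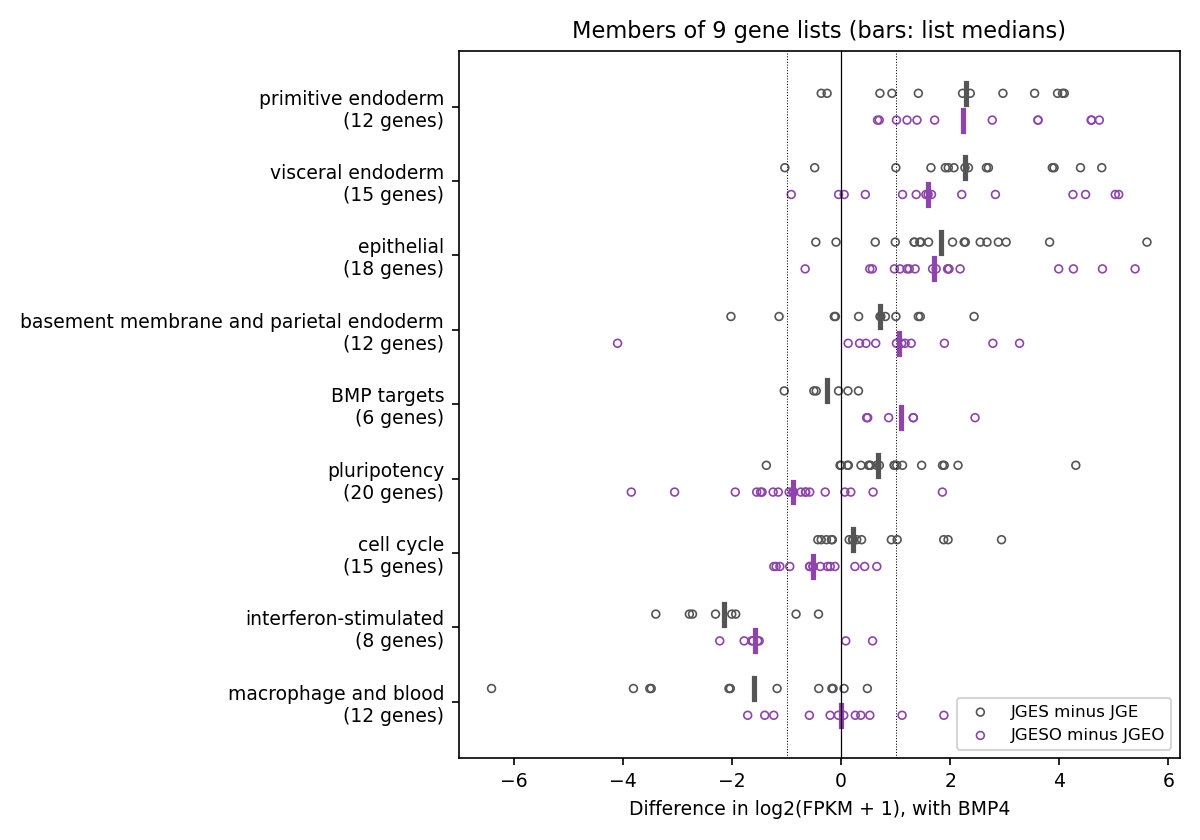
Each open point is 1 gene of a list, placed by its difference in log2(FPKM + 1) with BMP4, grey for JGES minus JGE and purple for JGESO minus JGEO, and thick bars are list medians, from 1 library a mixture. Both medians lie above 1 for the primitive endoderm (2.30 and 2.24), visceral endoderm and epithelial lists. They lie on different sides of 0 for the pluripotency list (0.68 and −0.88), of which some members were at 0 FPKM in JGE and could not be lower in JGES. For the interferon-stimulated list both lie below −1 (−2.15 and −1.57), but its members were kept after their values were seen.

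The genes lower with *Sall4* in both backgrounds were named by the same rule and were of varied function. *Pcdh8*, a protocadherin (chr14:79766775-79771312), was at 30.8 FPKM in JGE, 0.686 in JGES, 71.9 in JGEO and 3.47 in JGESO. *Msmp*, a secreted microseminoprotein relative (chr4:43583216-43584494), was at 413, 41.6, 307 and 28.5 FPKM, and *Sned1*, a matrix protein gene, at 118, 17.2, 120.2 and 7.40 FPKM. In all 3 the libraries with *Sall4* were below both without it. *Shisa6*, an AMPA receptor auxiliary protein gene, was at 9.41, 0.317, 20.02 and 0.0539 FPKM, and *Cacng4*, of the same receptor's auxiliary subunits, at 17.1, 1.74, 29.0 and 2.42 FPKM. *Arnt2*, a partner of bHLH-PAS factors, was at 10.9, 0.782, 28.3 and 3.19 FPKM, and the trefoil peptide gene *Tff2* at 12.9, 1.20, 14.5 and 1.07 FPKM. *Cd209f*, a C-type lectin gene with close paralogs, was at 14.7, 0.208, 11.9 and 0.907 FPKM. No gene of the lower class was listed at 0 in both libraries with *Sall4*.

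Several interferon-stimulated genes, which cells switch on in antiviral defence, were lower with *Sall4*. Of the 8 genes kept in the list, which was shortened after its values were seen, 6 were at least 1 lower in JGES, 6 in JGESO and 6 in both, with medians of −2.15 and −1.57. Since members were kept with the outcome known, this count and these medians describe the kept genes only. No conclusion on interferon-stimulated genes as a group is drawn from them. *Isg15*, a ubiquitin-like modifier gene, was at 43.0, 3.18, 17.98 and 3.06 FPKM, and *Ifit1*, which binds viral RNA, was at 12.1, 0.910, 2.69 and 0.207 FPKM. *Irf7*, *Usp18*, *Oasl2* and *Rsad2* completed the 6, with differences between −2.72 and −1.50. *Bst2*, which tethers virus particles to the cell, was at 253, 142, 299 and 446 FPKM, with differences of −0.82 and 0.58, and those of *Ifit3* were −0.41 and 0.09. The macrophage and blood list, read beside it, had a summed level of 139.9 FPKM in JGE, 10.6 in JGES, 111 in JGEO and 125 in JGESO. Its median difference was −1.60 in JGES and −0.000506 in JGESO. The sum was carried by *Lyz2* (83.8, 0, 72.5 and 87.1 FPKM), while *C1qa* stood at 7.84 FPKM in JGEO and 1.70 in JGESO, and the part of such cells in the interferon values was not tested. The defining marker *Ptprc* was at or under 0.107 FPKM in all 4 libraries, and 3 of the 12 genes were lower in both.

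The promoters of these genes are shown because 5 of the 7 list members with a RefSeq window carry the interferon-stimulated response element letters, GAAA followed after 2 bases of any kind by GAAA, on either strand and with overlapping matches counted, in capitals below. Windows are the 250 bases before the start on GRCm38.p6: *Isg15* at chr4:156200819-156201068 (minus strand), *Ifit1* at chr19:34640639-34640888 (plus), *Rsad2* at chr12:26456453-26456702 (minus), *Bst2* at chr8:71537473-71537722 (minus) and *Ifit3* at chr19:34583279-34583528 (plus).
Isg15: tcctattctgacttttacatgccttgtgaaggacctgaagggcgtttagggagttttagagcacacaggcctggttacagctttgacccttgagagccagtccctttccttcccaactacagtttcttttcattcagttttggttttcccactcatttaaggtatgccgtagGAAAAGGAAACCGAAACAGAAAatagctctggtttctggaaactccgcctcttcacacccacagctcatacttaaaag
Ifit1: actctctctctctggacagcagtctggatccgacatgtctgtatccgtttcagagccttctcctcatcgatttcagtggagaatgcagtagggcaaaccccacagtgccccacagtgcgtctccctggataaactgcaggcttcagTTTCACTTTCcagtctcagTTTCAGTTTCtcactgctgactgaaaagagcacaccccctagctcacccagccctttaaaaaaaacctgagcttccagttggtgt
Rsad2: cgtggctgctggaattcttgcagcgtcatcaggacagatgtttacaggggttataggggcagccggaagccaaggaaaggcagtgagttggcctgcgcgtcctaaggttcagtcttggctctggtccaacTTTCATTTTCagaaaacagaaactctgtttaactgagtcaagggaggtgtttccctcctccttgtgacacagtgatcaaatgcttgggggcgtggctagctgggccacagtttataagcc
Bst2: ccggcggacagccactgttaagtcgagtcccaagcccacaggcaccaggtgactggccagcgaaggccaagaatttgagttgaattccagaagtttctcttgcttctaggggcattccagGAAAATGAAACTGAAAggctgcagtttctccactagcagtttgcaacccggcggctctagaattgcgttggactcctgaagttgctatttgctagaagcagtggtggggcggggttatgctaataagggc
Ifit3: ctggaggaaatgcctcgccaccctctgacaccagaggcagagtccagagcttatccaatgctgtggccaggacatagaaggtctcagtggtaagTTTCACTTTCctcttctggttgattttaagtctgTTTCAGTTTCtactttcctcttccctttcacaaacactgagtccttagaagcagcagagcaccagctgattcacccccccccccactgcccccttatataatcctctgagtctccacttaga
*Isg15* holds 3 overlapping matches that begin 78, 72 and 66 bases before the start, *Ifit1*, *Bst2* and *Ifit3* hold 2 each, and *Rsad2* holds 1. *Isg15*, *Ifit1* and *Rsad2* were lower in both backgrounds, whereas *Bst2* and *Ifit3*, with the same letters, were not. The letters are not in the windows of *Irf7* and *Oasl2*, which were lower in both. They occur in 16 of 300 windows of the genes lower in both (5.33%), beside 2.43% of the windows of all tested genes, 2.98% of those of all promoters and 1.87% of those of the genes higher in both. AATATT, AT-rich letters of the kind SALL4 binds, occurs in 3.75% of the windows of the genes higher in both and 3.33% of those lower in both, beside 2.73% over all tested genes and 6.17% over all promoters. In the opposite classes it was in 5 of 165 windows and, with few windows, in 4 of 26.

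The pluripotency list had a median above 0 in one background and below 0 in the other, though 3 of its 20 members passed the threshold in opposite directions. Of the members, 7 were at least 1 higher and 1 lower in JGES, beside 10.0% and 9.96% of all tested genes. In JGE, *Nanog*, *Dppa3*, *Dppa5a*, *Tdgf1*, *Utf1*, *Fgf4*, *Gdf3*, *Tcl1*, *Prdm14* and *Dnmt3l* were at 0 FPKM and could not be lower in JGES. *Zfp42*, *Dppa4* and *Tfcp2l1*, at 0.0539, 0.319 and 0.603 FPKM there, could not be counted as lower. The sign of the JGES minus JGE median was therefore partly fixed in advance. In JGESO 1 was higher and 8 lower, beside 7.79% and 20.8%. The list medians were 0.68 and −0.88. *Zfp42*, the REX1 gene (chr8:43295063-43306980), was at 0.0539 FPKM in JGE, 2.91 in JGES, 12.1 in JGEO and 2.42 in JGESO. *Nanog*, listed at 0 in JGE, stood at 1.78, 23.1 and 9.87 FPKM in the others, and *Tfcp2l1*, a naive state factor, was at 0.603, 2.14, 34.5 and 3.28 FPKM. JGEO was the highest library for all 3, and both libraries with *Sall4* lay below it. The summed level of the list was 58.5 FPKM in JGE, 130.2 in JGES, 809 in JGEO and 475 in JGESO. *Nr0b1* was lower in both (2.57, 0.382, 35.7 and 1.55 FPKM), and the RNA-binding protein gene *Lin28a* was the member higher in both (5.21, 26.4, 13.2 and 50.3 FPKM).

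Of 15 cell cycle genes, 4 were at least 1 higher in JGES and 0 lower, and 0 were higher and 3 lower in JGESO, the last a share near the 20.8% of all tested genes. The 2 members past the threshold in opposite directions were *Top2a* and *Ccnb1*. *Top2a*, which untangles chromosomes, was at 8.79, 37.1, 10.1 and 3.87 FPKM and *Mki67*, a coat of mitotic chromosomes, at 1.96, 21.7, 3.81 and 2.23 FPKM. The *Mcm* genes of the replication helicase stayed between −0.94 and 0.21 in both. Of 11 p53 pathway genes, 5 were at least 1 lower in JGESO (beside 20.8% of all tested genes) and 1 in JGES, a share near the 9.96% of all tested genes.

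The other genes named for opposite directions were of varied function. *Slc39a10*, a zinc importer gene (chr1:46807544-46892852), was at 12.4, 50.5, 12.9 and 2.43 FPKM, and *Spp1*, the osteopontin gene, at 97.7, 345, 53.3 and 14.1 FPKM. *Hpgd*, which inactivates prostaglandins, was at 3.09, 14.6, 7.51 and 1.07 FPKM. *Igfbpl1* had the most negative gap between the 2 differences of all genes above 0 in all libraries, at 0.0769, 3.14, 18.9 and 0.449 FPKM. In the reverse direction, *Cgas*, the cytosolic DNA sensor gene (chr9:78430526-78443237), was at 9.92, 0.249, 4.62 and 16.5 FPKM, and the table lists it a second time under its older symbol *Mb21d1*. *Col8a2*, a short-chain collagen gene, was at 5.82, 0.657, 6.08 and 46.8 FPKM, the hair keratin *Krt83* at 6.10, 0.391, 1.89 and 11.6 FPKM, and *Wdr38* at 16.9, 3.97, 13.2 and 43.5 FPKM. The homeobox gene *Hoxa13* was at 15.7, 0.786, 2.37 and 7.65 FPKM. *Lars2*, one of the genes by which the JGES libraries stood apart, had the most positive gap among genes above 0 FPKM in all 4 libraries.

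The class higher in JGE and lower in JGEO had transcripts of lower GC content, which the rule did not use, than the other 3 classes. Over the 177 of its 191 genes with a GENCODE transcript it had a median GC content of 43.2% and a median longest transcript of 4605 bases, beside 51.0% and 3205 bases for all tested genes, and 69.5% of them were under 45% GC, beside 19.9%. The reverse class had medians of 54.0% and 1249 bases over the 51 of its 65 genes with a transcript. The genes higher in both had 54.3% and 2411 bases, and those lower in both 51.6% and 3446 bases. Across 10069 genes, which are not independent replicates, the Spearman correlation of GC content with JGES minus JGE was −0.255 and with JGESO minus JGEO 0.463, and without BMP4 it was −0.166 and 0.493. In 20 bins of GC content the median JGESO minus JGEO ran from −0.97 in the lowest bin to 0.12 in the highest, and JGES minus JGE from 0.43 to −0.23. When each difference was centred within these bins, a step chosen after seeing the data, 31 genes in place of 191 were higher in JGE and lower in JGEO, 25 of them shared. That step also left out genes without a transcript, which took the 191 to 177, and centring on the overall median alone gave 142. The same step left 382 genes higher in both (274 shared with the 299), 237 lower in both (216 shared with the 355) and 59 in the reverse class (31 shared with the 65). It moved the share of higher calls in JGEO from 27.2% to 52.98% and in JGE from 50.2% to 58.3%. The part of GC content in the opposite class was not tested.

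**Figure D4:**
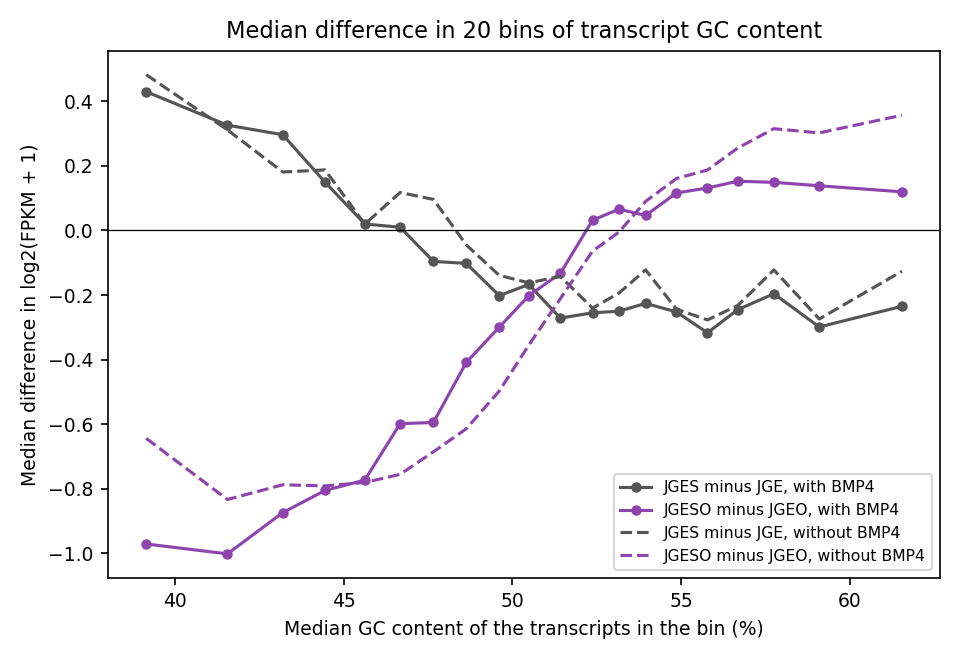
The x axis gives the median GC content (%) of the longest transcripts in each of 20 bins of about equal gene number, and the y axis the median difference in log2(FPKM + 1), grey for JGES minus JGE and purple for JGESO minus JGEO, solid with BMP4 and dashed without. The purple lines rise with GC content (from −0.97 to 0.12 with BMP4) and the grey lines fall (from 0.43 to −0.23).

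The same 2 differences without BMP4 came from 4 libraries that the rule did not use. These libraries differed from each other in the same ways as those with BMP4. *Lars2* was at 26.2 FPKM in JGES against 359 in JGE, and *Rn45s* at 309 against 1036 FPKM. JGESO again had the fewest genes at 1 FPKM or more (12732, against 13795 in JGEO) and the largest FPKM sum (524645). The part of these library differences in the shares below was not tested. Of the 299 genes higher in both, 202 were at least 1 higher in JGESO than in JGEO without BMP4 (67.6%, beside 6.33% of all tested genes) and 125 in JGES than in JGE (41.8%, beside 14.6%), while 36 were at least 1 lower there. Of the 355 genes lower in both, 271 were lower in JGESO (76.3%, beside 21.1%) and 260 in JGES (73.2%, beside 16.9%). The genes higher in JGE and lower in JGEO were higher in JGES without BMP4 in 107 of 191 (56.0%) and lower in JGESO in 37 (19.4%, near the 21.1% of all tested genes). Of the reverse class, 27 of 65 were lower in JGES (41.5%) and 16 higher in JGESO (24.6%).

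Some named genes had other differences in the libraries without BMP4, and whether BMP4 set them was not tested. *Krt5* was listed at 0 in JGES without BMP4 and was at 10.3 FPKM in JGESO. *Clu* was lower with *Sall4* in the JGE background there, at 175 FPKM in JGE and 45.6 in JGES. In the other background it was higher, at 38.0 FPKM in JGEO and 90.1 in JGESO. *Pitx1* was at 1.80 and 2.65 FPKM in JGE and JGES, and at 2.66 and 51.8 FPKM in JGEO and JGESO. *Gata4*, by contrast, was at 0.441 and 10.0 FPKM and at 0.335 and 75.2 FPKM, and *Cldn6* at 0.413 and 16.8 FPKM and at 1.84 and 149.8 FPKM, so that both were higher with *Sall4* in all 4 pairs. *Isg15* was listed at 0 in JGES beside 18.2 FPKM in its partner without *Sall4*, and JGESO stood at 6.22 FPKM beside 36.7. The pluripotency list was at least 1 higher in 20 of 20 genes in JGES without BMP4, with a median of 4.25, and its median in JGESO was −0.04. Of its members, *Dppa3*, *Dppa5a*, *Tdgf1*, *Fgf4* and *Dnmt3l*, among others, were at 0 FPKM in JGE there and could not be lower.

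**Figure D5:**
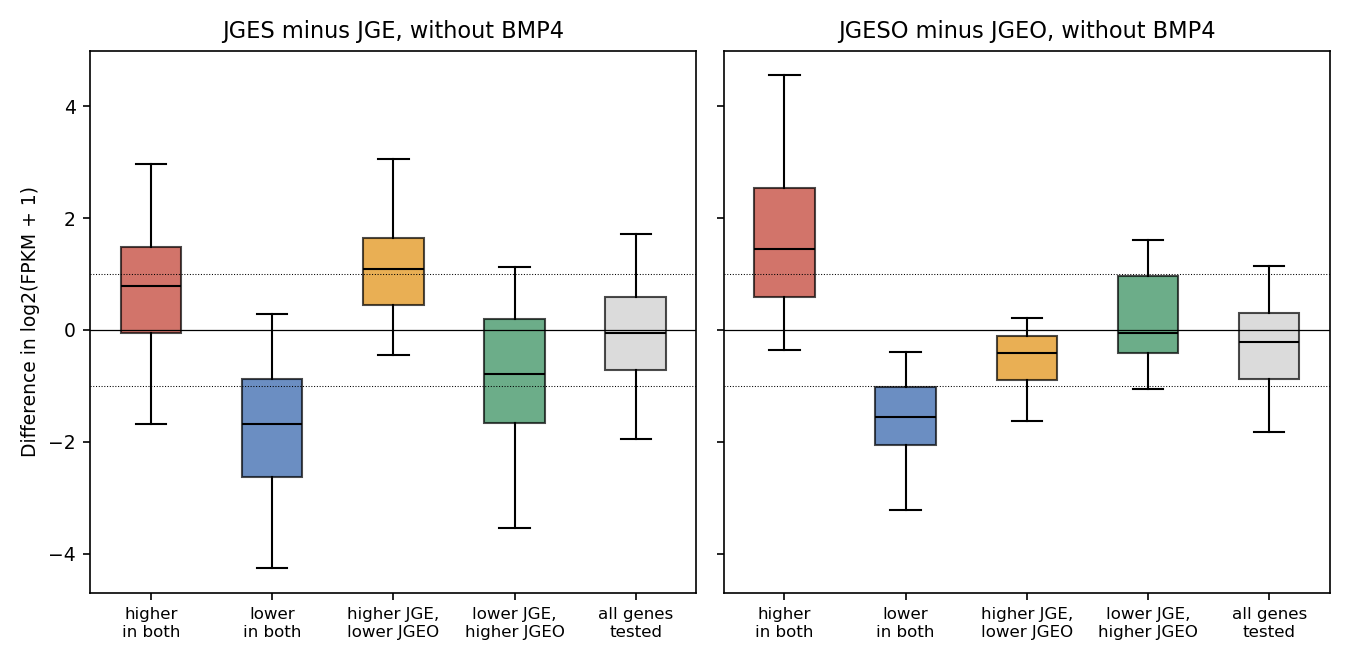
Boxes give the quartiles and median, and whiskers the 5th to 95th percentiles, of the difference in log2(FPKM + 1) without BMP4 over the genes of each class, with JGES minus JGE on the left and JGESO minus JGEO on the right. Medians are 0.79 and 1.45 for the genes higher in both, −1.69 and −1.55 for those lower in both, and −0.06 and −0.21 for all tested genes.

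Single cells of JGES with BMP4 at day 7 gave the cell types in which the genes are read. The deposited labels put 11335 cells in 4 types: 7125 in an intermediate state, 2372 labelled ParE, 1453 endothelial and 385 placenta-like (ParE is kept as written, since the labels do not say whether it stands for parietal or primitive endoderm), with median depths of 19594 to 28906 UMIs a cell, and the sample is 1 library. Endoderm markers set the ParE cells apart, with *Gata4* at 78.3 CPM (UMI counts scaled to an equal total for each type; exact 95% Poisson interval 76.1 to 80.5, counting error only) and at 1.20 to 3.20 CPM elsewhere. Of 273 genes higher in both with at least 20 UMIs, 120 were highest in ParE cells (44.0%, beside 24.4% of all tested genes) and 83 in the intermediate state (30.4%, beside 28.6%). Of 312 genes lower in both, 216 were highest in the intermediate state (69.2%) and 20 in ParE cells (6.41%). The opposite class of 167 genes with lower values in JGESO was spread over the types, with 51 highest in ParE cells (30.5%, beside 24.4% of all tested genes) and 48 in placenta-like cells (28.7%, beside 32.1%).

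The genes higher in both were not of 1 cell type. *Cldn6* was at 100.1 CPM in ParE cells, 26.7 in placenta-like cells and 3.07 in the intermediate state, and *Amn* at 208, 17.5 and 13.9 CPM, with 33.3 CPM in endothelial cells. *Krt8* was highest in placenta-like cells at 995 CPM, above 359 in ParE cells. *Krt5* was read in the intermediate state, at 54.4 CPM (53.2 to 55.5) against 3.60 (3.14 to 4.10) in ParE cells, and so was *Clu*, at 2987 against 415 CPM. *Ttr* was at 220.0 CPM in ParE cells and 164 in the intermediate state. Of the genes lower in both, *Msmp* was at 148 CPM in the intermediate state and 24.6 in ParE cells, and *Isg15* at 36.4 and 4.49 CPM, with 42.6 CPM in placenta-like cells. *Cd209f* was at 30.7 CPM in endothelial cells and at or under 0.211 CPM in the others. The macrophage gene *Lyz2* was also highest there, at 47.8 against at most 0.586 CPM. *Lyz2* had 1669 UMIs in these endothelial cells but was listed at 0 FPKM in the bulk JGES library with BMP4. The reason for this disagreement was not tested.

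Peaks at promoters came from the deposited calls of SALL4-WT cells at day 6, MEFs that received SALL4 alone, and of untreated MEFs, neither of which is one of the 4 mixtures. A SALL4 Cut&Tag peak lay within 2 kb of a start in 154 of 291 genes higher in both (52.9%) and 209 of 330 lower in both (63.3%), beside 82.0% of all tested genes. Among the genes higher in JGE and lower in JGEO it was 151 of 177 (85.3%). H3K27ac, a mark of active promoters, gave 44.3%, 55.5% and 84.2% of the 3 classes beside 81.8%, and open chromatin in MEFs gave 74.2%, 85.2% and 94.9% beside 94.8%. The reverse class was lower still, at 45.1%, 27.5% and 60.8%, so that a share under that of all genes was not particular to the alike classes, and each map had a single deposited peak set. SALL4 peaks were called near *Cldn6* (chr17:23674308-23677966), *Krt8* (chr15:102004183-102006066), *Clu* (chr14:65968224-65969270), *Isg15* (chr4:156202247-156204077) and *Usp18* (chr6:121245021-121246339). By list, a SALL4 peak lay at 7 of the 12 primitive endoderm genes (among them *Gata6* and *Dab2*, and not *Gata4*, *Foxa2* or *Pitx1*), at 3 of 15 visceral endoderm genes, 8 of 18 epithelial genes and 5 of 8 interferon-stimulated genes.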

How the data were processed

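The authors trimmed reads with Trim Galore 0.6.4, mapped them with HISAT2 2.2.1 to mm10 and computed FPKM with StringTie 2.2.1, and the deposited table of 8 libraries holds those FPKM. Read numbers behind the FPKM are not given in the sources used here, so the depth is unknown. Cells were deposited by the authors as UMI counts with a cell type each, and were summed per type to CPM, and no doublet caller was run. The BMP4 sample shared 2 barcodes with the sample without BMP4. Deposited peak files, called by the authors with MACS on mm10 (for Cut&Tag after merging replicates), give a peak score. Differences were taken on log2(FPKM + 1) in Python 3.11.15 with pandas, a filter of 5 FPKM and a threshold of 1 on the log2 difference. Only the counting was checked on simulated data, with known changes in well expressed genes and little noise. That check does not show how the filter and threshold act on low values or on the variation of these data. The study's tool, GFOLD, needs reads. The members and gene lists were chosen with earlier results of these data known. Named genes were the 8 (alike classes) or 5 (opposite classes) with the largest smaller difference above 0 FPKM in all libraries, the 5 highest of those listed at 0 without *Sall4*, the 5 most extreme gaps between the differences in each direction, the delivered factors and list members. The ribosomal protein group was formed after seeing the data. GENCODE vM21 gave coordinates, starts, transcript lengths and GC content, and RefSeq gave promoters. A second table was used only for its copy of the JGES library with BMP4, and its other 16 value columns were not used, nor were 19434 cell columns. That copy had 10278 tested genes in common, with 0 of them 1 or more apart on the log2 scale. The interferon list was shortened after seeing the data, and some items are not reported here.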

Additional observations from a re-analysis of the deposited data

Results flagged for a closer look

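With 1 library a mixture, differences between the backgrounds were flagged here where genes or list medians went in opposite directions in JGE and JGEO. None of these differences was tested. A gap in size alone, as for *Chga* with differences of 4.98 and 0.85, was not flagged. Opposite directions were seen in 191 genes higher in JGE and lower in JGEO and in 65 genes of the reverse class. The 191 became 433 with a pseudocount of 0.1, 10 with one of 5, 290 with upper quartile scaling and 31 after centring within GC bins, and the 65 became 101 and 23 with those pseudocounts. The gap between the 2 log2 differences, JGESO minus JGEO less JGES minus JGE, was −3.97 for *Slc39a10*, −5.73 for *Igfbpl1*, −3.97 for *Hpgd*, −3.83 for *Zfp42* and −3.65 for *Spp1*. It was −4.98 for *L1td1*, whose protein binds RNA in pluripotent cells, and −4.16 for *Trh*, the thyrotropin releasing hormone gene. In the other direction it was 4.47 for *Krt83*, 4.79 for *Col8a2*, 3.502 for *Wdr38*, 4.76 for *Cgas* and 4.58 for *Hoxa13*. Between list medians the gap was −1.56 for pluripotency and 1.35 for the BMP targets. The pluripotency gap includes members at 0 FPKM in JGE that could not be lower in JGES. Each gap rests on the JGES library, which stood apart in *Lars2*, *Rn45s* and the macrophage genes, and on the JGESO library, which had the fewest genes at 1 FPKM or more.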

How the results depend on the processing

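Each mixture was 1 library, so no replicate could be left out. A paired fit of the *Sall4* difference over the pairs with and without BMP4 was not run. Depth is unknown, so low FPKM carry a counting error that cannot be given. No value past the fold changed direction, though centring moved list medians near 0 across it. Of the summary values under the alternatives, 107 stayed within the limits set and 49 moved. For named genes, 571 checks of a gene under an alternative kept their side of the threshold, 11 lost it and 2 gained it. The cause was not tested, except that stricter folds keep fewer genes by construction.

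With a pseudocount of 0.1, 433 and 101 genes were in the opposite classes, and 50% of the genes higher in both were also higher in JGES without BMP4. With a pseudocount of 5 the classes held 124 (higher in both), 116 (lower in both), 10 and 23 genes, JGES minus JGE had 484 higher and 473 lower, JGESO minus JGEO had 494 higher and 898 lower, and the shares repeated without BMP4 were 31.5% (higher, JGES) and 62.1% (lower, JGESO). With a filter of 1 FPKM or none, 1739 genes were higher in JGES, and 70.0% of the lower class repeated in JGESO. Median centring gave 7 lists with medians of opposite sign and 70.6% for that share. Upper quartile scaling gave 290 genes higher in JGE and lower in JGEO.

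At a fold of 1.5 times the classes held 598, 956, 807 and 185 genes, the counts were 1996, 2501, 1564 and 3735, and the share repeated in JGES was 51.2%. At a log2 difference of 2 the classes held 77, 35, 0 and 2 genes, the counts were 250, 178, 204 and 355, and the shares were 28.6% (JGES) and 60% (JGESO). Centring within GC bins, chosen after seeing the data, as was leaving out second names, gave 31 genes higher in JGE and lower in JGEO, 931 lower in JGESO and 7 lists of opposite sign. A cell type at least 2 times above every other was ParE for 30.04% of the genes higher in both, beside 2.38% of all tested genes. It was the intermediate state for 45.5% of those lower in both, beside 8.92%. Within 1 kb, 45.7% of the genes higher in both had a SALL4 peak, beside 79.1% of all tested genes. With the peaks above the median score it was 32.0%, and 36.1% of those lower in both, beside 60.6%. For H3K27ac these were 16.2% and 33.3%, beside 64.6%.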

Other observations

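Gene groups outside the comparisons above were mixed. Of 80 ribosomal protein genes, gathered after their values were seen, 32 were at least 1 higher in JGESO than in JGEO (beside 7.79% of all tested genes) and 2 lower, with a median of 0.91, while JGES minus JGE had 2 higher and 4 lower, with a median of −0.19. Of 10 germline genes, with medians of 0.51 and 0.14, 3 were higher in both, all *Rhox* homeobox genes, *Rhox5* at 0.174 FPKM in JGE, 33.2 in JGES, 16.8 in JGEO and 40.2 in JGESO, and *Rhox6* and *Rhox9* were listed at 0 in JGE. *Dazl*, a germ cell RNA-binding protein gene, had a difference of −0.66 in JGESO. Of the 13 NuRD subunits, with medians of −0.36 and −0.14, *Chd3* was lower in both, at 29.1, 13.7, 31.9 and 7.70 FPKM, and *Rbbp7*, a histone chaperone gene, had differences of 2.19 and −0.01, and *Hdac2*, a deacetylase gene, of 0.63 and −1.39. The other spalt genes, *Sall1*, *Sall2* and *Sall3*, had differences between −0.25 and 0.52, except *Sall3* in JGESO, at −1.04. *Chga*, a granin of endocrine cells, was at 0.110 FPKM in JGE, 33.9 in JGES, 0.686 in JGEO and 2.03 in JGESO.

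Of the fixed lists not described above, the medians of JGES minus JGE and JGESO minus JGEO were 0.28 and 0.19 for trophoblast, 0.24 and 0.30 for endothelial, 0.38 and 1.16 for hemoglobin, −0.56 and −0.21 for WNT targets and −0.32 and 0.06 for the FGF pathway.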
